A study of Mus musculus with 6 samples.

Results

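Natural killer cells are innate lymphocytes that kill infected or transformed cells without rearranged antigen receptors. They read their targets through activating and inhibitory surface receptors, many of them lectin-like proteins encoded in one cluster of genes, and they depend on interleukin 15, which signals through the interleukin 2 receptor beta chain. The T-box factors Eomes and T-bet, the product of Tbx21, direct their development. Here 9 genes of these receptors and factors were described: Klrd1, Klrk1, Klrb1c, Klra7, Il2rb, Ncr1, Eomes, Tbx21 and Ncam1. They were followed through every probe set that the platform annotation assigned to exactly 1 of these symbols, which gave 17 of 45037 probe sets other than controls. Of the 9 genes, 8 had such a probe set. Klrb1c had none, since its only probe set is shared with Klrb1b, and that probe set is given below without a gene of its own.

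The cells came from the bone marrow of C57BL/6J mice and were sorted as KSL cells (c-Kit+Sca-1+Lin-), a gate that contains blood stem cells and early progenitors. They were grown for 7 days on a layer of human umbilical vein endothelial cells, in medium without serum and with 5 mouse cytokines that the labels do not name. One group received mD1R (3 arrays) and the other PBS (3 arrays), and KSL cells were sorted a second time before RNA was extracted. The labels do not spell out mD1R, which, as background on the study, is a recombinant fusion that joins the receptor-binding part of the Notch ligand Delta-like 1 to a motif that binds endothelium. The labels name the replicates as biological but do not say whether they came from separate animals, so the p-values measure the spread between these arrays, which may be technical. They also do not list the antibodies behind Lin-, so it is not known whether antibodies to natural killer cells were among them. The comparison asks how the natural killer genes differed between KSL cells from the 2 cultures.

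Signals are log2 values, each array scaled on its own, with array medians between 6.07 and 6.42. Kit, whose product is part of the gate, had log2 signals between 9.58 and 11.37 in the mD1R arrays and between 8.85 and 9.97 in the PBS arrays, and Ptprc, the pan-leukocyte antigen gene, had log2 signals between 13.29 and 13.84 in the mD1R arrays and between 13.78 and 14.14 in the PBS arrays. Ly6a, which encodes Sca-1, had no probe set assigned to it alone, so it was not analysed here. On the first principal component, with 56.9% of the variance, mD1R replicate 3 lay at 12.6, between the other mD1R arrays (108.4 and 93.6) and the PBS arrays (-64.5 to -79.4). A spike-in control, BioB, divided the arrays in another way, with mD1R replicates 1 and 2 and PBS replicate 1 in one set and mD1R replicate 3 and PBS replicates 2 and 3 in the other. These are called spike-in sets. A log2 change is mD1R minus PBS, ± its standard error from limma. It fits a linear model to each probe set and shares information on variance between probe sets.

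The natural killer genes were lower with mD1R. Of the 17 probe sets, 13 had every mD1R array below every PBS array and 1 had every mD1R array above, against 13.6% and 13% of all probe sets, and 3 overlapped. Across the 17, the median log2 change was -2.22, against 0.02 over all probe sets. A filter on mean log2 signal, at 5.27, kept 12 of the 17. Since the members were brighter with PBS, a probe set could pass that filter through the PBS arrays alone. Of the 12, 10 fell at adjusted p 0.05 and 0 rose, against 6.50% of all kept probe sets lower and 6.13% higher. The 10 calls represent 7 genes, all measured members except Tbx21. With no filter, the same 10 of 17 probe sets fell, against 3.28% of all probe sets. These are bulk RNA values, so fewer cells that express a gene and less of its RNA per cell cannot be told apart.

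**Figure D1:**
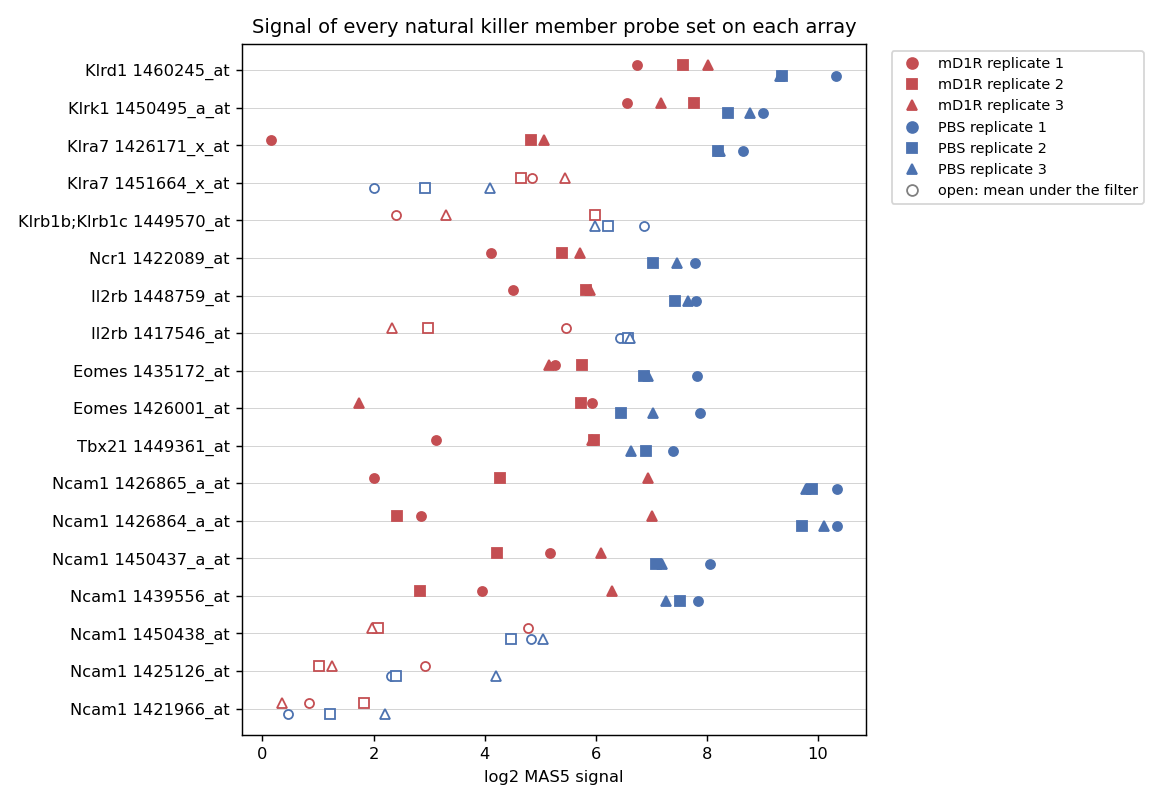
The log2 MAS5 signal (horizontal axis) of the 17 member probe sets and the shared Klrb1b and Klrb1c probe set (rows) is plotted for each array, mD1R in red above PBS in blue, with a symbol shape for each replicate. Filled symbols mark probe sets kept for the test, in all 12 of which the mD1R arrays lie left of the PBS arrays, and open symbols mark probe sets with a mean under 5.27.

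The lectin-like receptor genes lie together on chromosome 6 of GRCm38.p6. Klrd1 (chr6:129588092-129598775) encodes the partner chain that pairs with NKG2 proteins to read a nonclassical class I molecule. Its log2 signals were 6.74, 7.57 and 8.02 in mD1R replicates 1, 2 and 3, against 10.32, 9.36 and 9.32 in PBS replicates 1, 2 and 3. The groups were separated by 1.30, and Klrd1 fell by 2.22 ± 0.40, which is 4.67-fold (adjusted p = 0.0162). Klrk1 (chr6:129610323-129623903) encodes NKG2D, an activating receptor for stress-induced ligands. Its log2 signals were 6.57, 7.77 and 7.17 with mD1R, against 9.02, 8.39 and 8.77 with PBS. The arrays did not overlap, and Klrk1 fell by 1.55 ± 0.34 (2.94-fold, adjusted p = 0.0275), the smallest change among the called members.

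Klra7 (chr6:130218605-130233322) encodes a Ly49 receptor for class I molecules, one of a family of closely related copies. Its probe set 1426171_x_at read 0.15, 4.84 and 5.07 with mD1R, against 8.66, 8.20 and 8.23 with PBS. The PBS arrays lay close together while mD1R replicate 1 was far below the other mD1R arrays, near the lower end of the scale, and the probe set fell by 5.01 ± 1.18 (adjusted p = 0.0326). Without mD1R replicate 1 the change was -3.41. The second Klra7 probe set, 1451664_x_at, went the other way at low signal, with 4.86, 4.65 and 5.45 with mD1R, against 2.0, 2.93 and 4.10 with PBS. The groups did not overlap, the log2 difference was 1.98 ± 0.75, and its mean was under the filter. With no filter it did not pass (adjusted p = 0.168). The suffix of both identifiers marks probe sets whose probes can match other transcripts, and the share of related Ly49 genes in either was not tested.

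Klrb1c encodes the NK1.1 antigen, and the probe set that it shares with Klrb1b had log2 signals of 2.41, 5.98 and 3.31 with mD1R, against 6.87, 6.23 and 5.99 with PBS. The groups came within 0.01 of each other, and the log2 difference of -2.46 ± 0.89 did not pass with no filter (adjusted p = 0.149). Ncr1 (chr7:4337715-4345184) encodes NKp46, an activating receptor that is among the most restricted markers of natural killer cells and related innate lymphoid cells. It read 4.12, 5.40 and 5.71 with mD1R, against 7.78, 7.03 and 7.46 with PBS. All mD1R arrays were at least 1.33 below the lowest PBS array, and Ncr1 fell by 2.35 ± 0.47 (adjusted p = 0.0213).

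RefSeq windows from 250 bases before to 50 bases after a gene start (GRCm38.p6) were found for 6 of the 9 genes. They were searched on both strands for a T-box motif (AGGTGTGA), a Runx motif (TGTGGT) and a Stat5 motif (TTCNNNGAA, which reads the same on both strands), after factors that act in natural killer cells. Of all 32851 windows, 1.28% held the T-box letters, 16.8% the Runx letters and 8.30% the Stat5 letters. The windows of the called genes with a match are shown, 5′ to 3′ on the gene's strand, with the matched letters in capitals. For Ncr1 (chr7:4337465-4337764, plus strand) they are 2 Runx matches, starting 176 bases and 41 bases before the gene start, the second on the opposite strand. For Klrk1 (chr6:129623815-129624114, minus strand) it is 1 Runx match. For Klra7 (chr6:130231638-130231937, minus strand) they are 2 Stat5 matches, starting 189 bases before and 8 bases after a gene start that lies inside the gene.
Ncr1: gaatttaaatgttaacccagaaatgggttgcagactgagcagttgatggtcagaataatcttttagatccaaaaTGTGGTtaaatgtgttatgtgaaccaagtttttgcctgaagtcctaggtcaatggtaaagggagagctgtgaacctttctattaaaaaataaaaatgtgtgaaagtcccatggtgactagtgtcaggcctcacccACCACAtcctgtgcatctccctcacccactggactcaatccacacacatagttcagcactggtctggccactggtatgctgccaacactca
Klrk1: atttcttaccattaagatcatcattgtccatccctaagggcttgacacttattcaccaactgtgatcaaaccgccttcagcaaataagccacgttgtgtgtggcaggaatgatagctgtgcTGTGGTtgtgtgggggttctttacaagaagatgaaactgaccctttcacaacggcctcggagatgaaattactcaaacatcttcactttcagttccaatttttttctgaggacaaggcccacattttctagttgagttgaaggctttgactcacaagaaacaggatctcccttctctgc
Klra7: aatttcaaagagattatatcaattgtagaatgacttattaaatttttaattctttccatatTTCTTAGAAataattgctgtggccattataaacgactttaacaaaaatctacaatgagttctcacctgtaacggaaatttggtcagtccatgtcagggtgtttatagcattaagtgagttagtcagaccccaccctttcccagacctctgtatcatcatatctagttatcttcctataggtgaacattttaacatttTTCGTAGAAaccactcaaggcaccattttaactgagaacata
The matches are a description of the letters only. The Klrb1c window also held 1 Runx match, whereas the windows of Eomes and Tbx21 held none of the 3 motifs, and no member window held the T-box motif. Ncr1 and Klra7 each had a second gene start. The other Klra7 window (chr6:130233273-130233572), at the start of the gene coordinates given above, held no match.

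Il2rb (chr15:78479256-78511621) encodes the receptor chain through which interleukin 15 sustains natural killer cells. Probe set 1448759_at read 4.52, 5.83 and 5.90 with mD1R, against 7.81, 7.42 and 7.66 with PBS. The groups were 1.53 apart and the probe set fell by 2.22 ± 0.42 (adjusted p = 0.0188). The second probe set, 1417546_at, had a mean under the filter and read 5.47, 2.99 and 2.33 with mD1R, against 6.43, 6.58 and 6.61 with PBS. Here too the arrays did not overlap. Its log2 difference of -2.94 ± 0.81 did not pass with no filter (adjusted p = 0.068), and mD1R replicate 1, the lowest mD1R array of the first probe set, was the highest mD1R array of the second.

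Eomes (chr9:118478186-118486132) is required for mature natural killer cells. Its probe set 1435172_at read 5.27, 5.75 and 5.16 with mD1R, against 7.82, 6.87 and 6.95 with PBS. The mD1R arrays agreed closely, with an SD of 0.31, and the probe set fell by 1.82 ± 0.38 (adjusted p = 0.0233). The other, 1426001_at, read 5.94, 5.74 and 1.74 with mD1R, against 7.87, 6.46 and 7.03 with PBS. The groups did not overlap, but mD1R replicate 3 stood far below the other mD1R arrays. The log2 difference was -2.65 ± 1.06 (95% interval -5.10 to -0.20, adjusted p = 0.141) with all arrays and -1.28 without mD1R replicate 3. Tbx21 (chr11:97098007-97115331), whose product T-bet drives interferon gamma expression, read 3.13, 5.97 and 5.94 with mD1R, against 7.39, 6.90 and 6.64 with PBS. Its mD1R arrays were all below its PBS arrays, mD1R replicate 1 by far the most. The log2 difference of -1.96 ± 0.75 (95% interval -3.69 to -0.23) did not pass (adjusted p = 0.126), and it was -1.02 without mD1R replicate 1.

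Ncam1 (chr9:49502129-49799393) encodes the neural cell adhesion molecule, which defines natural killer cells in humans. In mice it is not a general marker of these cells. It had 7 probe sets, 4 of them kept, and all 4 fell. Probe set 1426864_a_at read 2.86, 2.42 and 7.02 with mD1R, against 10.35, 9.72 and 10.11 with PBS, and 1426865_a_at read 2.0, 4.27 and 6.94 with mD1R, against 10.34, 9.90 and 9.79 with PBS. The PBS arrays lay within a narrow range and mD1R replicate 3 was the nearest to them in both. The log2 changes were -5.96 ± 1.07 (adjusted p = 0.0164) and -5.61 ± 1.05 (adjusted p = 0.0176). With 32 added to the linear signals before log2, which damps low values, they were -4.15 and -4.01.

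The other kept Ncam1 probe sets changed less. Probe set 1439556_at read 3.96, 2.84 and 6.29 with mD1R, against 7.84, 7.51 and 7.26 with PBS, and fell by 3.18 ± 0.79 (adjusted p = 0.038). Probe set 1450437_a_at read 5.18, 4.23 and 6.09 with mD1R, against 8.05, 7.09 and 7.20 with PBS, and fell by 2.28 ± 0.52 (adjusted p = 0.0299). In all 4 kept probe sets mD1R replicate 3 was the highest mD1R array. Without it the change of 1426864_a_at was -7.42 and that of 1439556_at was -4.14. The 3 probe sets under the filter had mean log2 signals between 1.15 and 3.87 and overlapped between groups. Their log2 differences were -0.29 ± 0.85, -1.26 ± 0.91 and -1.84 ± 0.88. No probe set of Ncam1 had a higher mean with mD1R over all 6 arrays. The sign of the dimmest, 1421966_at, depended on the arrays used. It differed by 0.17 without PBS replicate 3 and by 0.04 without mD1R replicate 3.

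**Figure D2:**
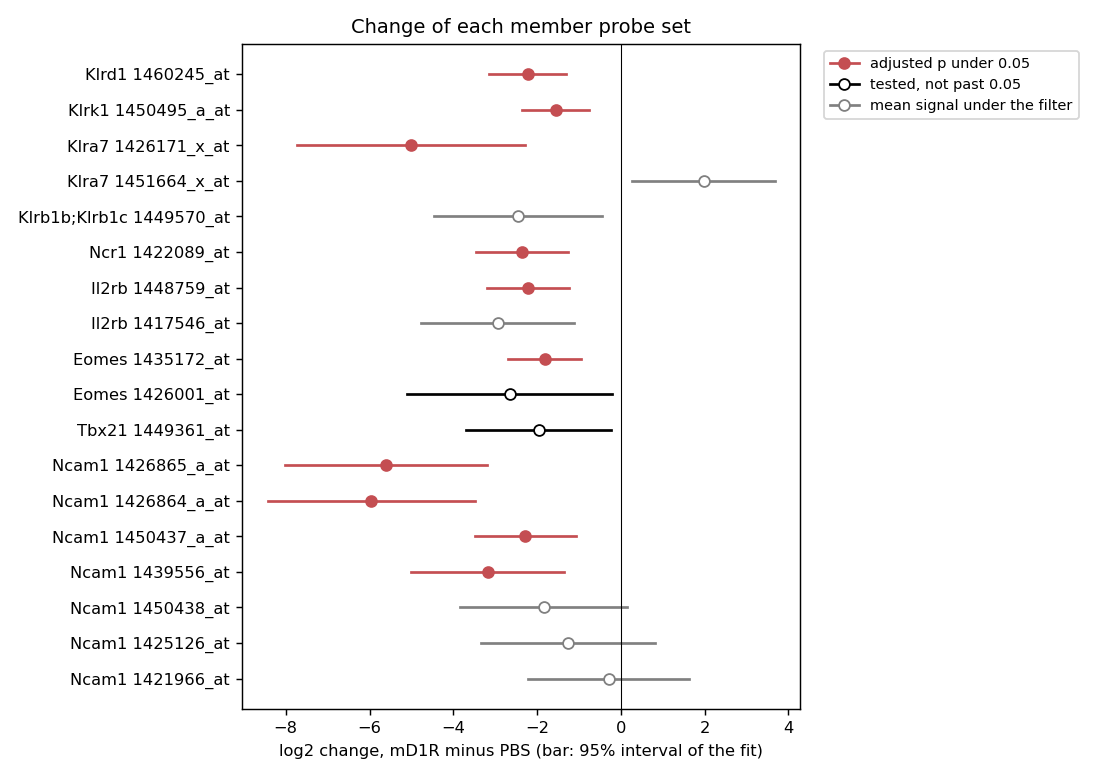
The log2 change (horizontal axis, mD1R minus PBS) of each member probe set and of the shared Klrb1b and Klrb1c probe set is drawn as a point with the 95% interval of the fit. Filled red points passed adjusted p 0.05, open black points were tested and did not pass, and open grey points had a mean signal under the filter. The intervals of the 2 Ncam1 probe sets with the largest falls and of the first Klra7 probe set are the widest among the called ones, and 1 point, the second Klra7 probe set, lies right of 0.

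Among the mD1R arrays the members did not vary alike, whereas PBS replicate 1 was the highest PBS array in all 12 kept probe sets. In the 8 kept probe sets outside Ncam1, mD1R replicate 1 was the lowest mD1R array in 6 and mD1R replicate 3 in 2, both of Eomes. The spread was larger with mD1R than with PBS in 11 of the 12, with SDs of log2 signal between 0.31 and 2.78 with mD1R and between 0.19 and 0.71 with PBS. Of the 17 probe sets, 13 had every mD1R array below every PBS array, so they had to be lower within each spike-in set. Within the spike-in set that holds PBS replicate 1, 15 of the 17 were lower with mD1R, and within the other, 16 were. Within those sets Klrd1 differed by -3.17 and -1.32, Ncr1 by -3.03 and -1.54, Klrk1 by -1.84 and -1.41, and the Ncam1 probe set 1426864_a_at by -7.71 and -2.90. Each of these values rests on a single array of 1 group. With the spike-in set as a block, Klra7 and the Ncam1 probe set 1439556_at lost their calls (largest adjusted p = 0.0566) and the Eomes probe set 1426001_at gained one.

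The calls changed when 1 array was left out. Without mD1R replicates 1, 2 and 3 in turn, 6, 1 and 10 of the called probe sets were still called, and without PBS replicates 1, 2 and 3 in turn, 1, 0 and 0 were. The 1 call was Klrk1 without mD1R replicate 2 and Klrd1 without PBS replicate 1. In each of these fits all 12 kept probe sets stayed lower with mD1R. That was fixed in advance, since every mD1R array lay below every PBS array in all 12. Of all 27022 kept probe sets, between 5853 and 9273 had an unadjusted p under 0.05 in limma, and of the 12 members between 10 and 12 did. Without PBS replicate 2 the smallest adjusted p among them was 0.0525, and without PBS replicate 3 it was 0.0677, a setting in which limma called 0 of 27022 probe sets of any gene although 5853 had an unadjusted p under 0.05. The median log2 change of the 12 lay between -2.59 and -2.08 in these 6 fits. The sizes of the changes also depended on how low signals were treated. With 32 added to the linear signals, Ncr1 changed by -1.60, Il2rb (1448759_at) by -1.59, Eomes (1435172_at) by -1.29, Klra7 (1426171_x_at) by -2.83, Klrk1 by -1.36 and Klrd1 by -2.03, and the same 10 probe sets were called.

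**Figure D3:**
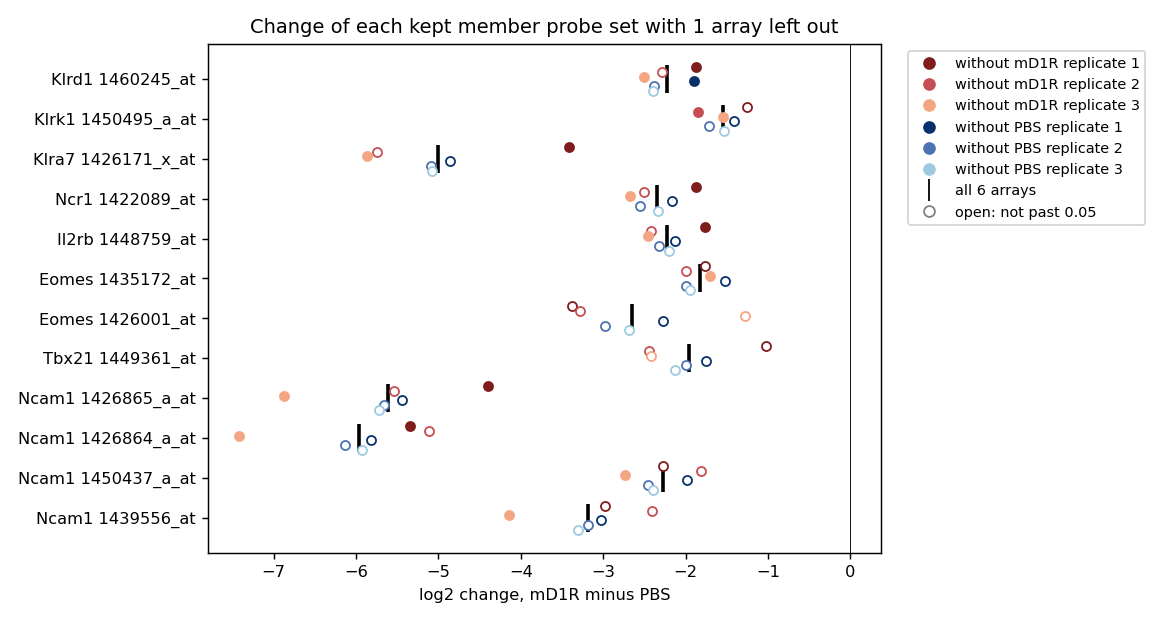
The log2 change (horizontal axis, mD1R minus PBS) of each of the 12 kept member probe sets is shown with all 6 arrays (black bar) and with each array left out (points), filled where adjusted p stayed under 0.05. All points lie left of 0, between -7.42 and -1.02, and filled points are most frequent where mD1R replicate 3 was left out. The side of 0 was fixed in advance, since the groups did not overlap in any of the 12.

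Genes related to the members were described by lists, each gene by its brightest kept probe set. Of 155 listed genes, 101 were measured, of which 13 fell and 12 rose, with a median log2 change of -0.09. Over all 12320 genes, 7.09% fell, 8.49% rose and the median was 0.09. With no filter 134 of the listed genes were measured, of which 13 fell and 11 rose. Of 12 measured other genes of the natural killer receptor cluster, among 25 listed, 5 fell and 0 rose, with a median of -1.74. As with the members, a gene brighter with PBS could pass the filter through the PBS arrays alone. No count or median without the filter was made for this list. Klrc1, which encodes the inhibitory NKG2 partner of the Klrd1 product, read 4.43, 5.36 and 4.54 with mD1R, against 8.59, 7.97 and 8.28 with PBS, and fell by 3.50 ± 0.36 (adjusted p = 0.00961). The Ly49 gene Klra8 fell by 4.45 ± 0.61 and Klre1 by 2.54 ± 0.37. The other 2 that fell, Klra17 (-3.17 ± 0.73) and Klrb1f (-2.47 ± 0.66), were chosen after their values were seen. Klra8 and Klra17 are Ly49 genes, as is Klra7. Klra17 climbed over mD1R replicates 1, 2 and 3 (5.70, 7.19 and 9.04), as did the Ly49 gene Klra2 (5.79, 8.98 and 9.55), which did not pass. Klra8 did not (3.57, 2.53 and 4.86). Which cells expressed them was not tested. Of the 7 that did not pass, Klrb1a (-1.74 ± 0.53), Klrg1 (-0.82 ± 0.27), Klrb1b (-1.46 ± 0.56) and Klra2 (-1.74 ± 0.85) were lower on every mD1R array. Clec2i was higher on every mD1R array (0.45 ± 0.19), and Cd69 (-0.37 ± 0.29) and Clec2d (-0.19 ± 0.39) overlapped between groups. All 7 were also chosen after their values were seen. Of the 12, 9 had an unadjusted p under 0.05 in limma, against 8048 of 27022 kept probe sets.

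The called cytotoxic effectors went both ways. Of 19 measured, 2 fell and 2 rose, against 7.09% and 8.49% of all genes. The median was -0.71, and 11 had an unadjusted p under 0.05 in limma, against 8048 of 27022 kept probe sets. Xcl1, a chemokine made by activated natural killer and T cells, read 4.97, 5.94 and 5.24 with mD1R, against 9.29, 8.17 and 8.65 with PBS, and fell by 3.32 ± 0.39 (adjusted p = 0.00968). Gzma, a granzyme gene chosen after its value was seen, fell by 1.72 ± 0.37. Gzmb, another granzyme, read 14.35, 14.23 and 14.60 with mD1R, against 12.65, 13.19 and 12.87 with PBS, and rose by 1.49 ± 0.20 (adjusted p = 0.0109). Serpinb9, which encodes an inhibitor of granzyme B, rose by 1.07 ± 0.21. These 2 granzyme genes moved in opposite directions. Among effectors that did not pass, Nkg7 (-1.70 ± 0.55), Ctsw (-1.75 ± 0.53), Rab27a (-1.75 ± 0.57) and Prf1 (-1.10 ± 0.42) were lower on every mD1R array. Ccl4 (0.71 ± 0.21) and Tnfsf10 (0.92 ± 0.34) were higher on every mD1R array, and all of these were chosen after their values were seen.

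Among 13 other surface genes, 3 fell and 2 rose, against 7.09% and 8.49% of all genes, with a median of -0.54. Cd7, a surface glycoprotein gene of T and natural killer cells, read 3.48, 4.13 and 3.73 with mD1R, against 8.37, 7.20 and 7.41 with PBS, and fell by 3.88 ± 0.44. Cd2, an adhesion receptor of T and natural killer cells, fell by 1.95 ± 0.38. The third that fell was the chemokine receptor gene Cxcr3 (-1.72 ± 0.36), and Slamf7 rose by 1.32 ± 0.31, both chosen after their values were seen. Cd96, a receptor of T and natural killer cells, rose by 1.43 ± 0.28. Of 13 adaptors and kinases that carry the receptors' signals, 0 fell and 1 rose, against 7.09% and 8.49% of all genes. The 1 that rose was Lat (1.53 ± 0.25), the scaffold of T cell and mast cell receptors. The adaptor genes Tyrobp and Hcst, which serve activating Ly49 receptors and NKG2D, and in the case of Tyrobp also myeloid receptors, had log2 differences of -0.09 ± 0.25 and -0.39 ± 0.30 that did not pass. Cd247, a signalling chain used by NKp46, was lower on every mD1R array and differed by -1.44 ± 0.61 (adjusted p = 0.158). Fcer1g, another adaptor gene, differed by 0.31 ± 0.23, and its groups overlapped. Tyrobp, Hcst, Cd247 and Fcer1g were chosen after their values were seen. Of the 13, 4 had an unadjusted p under 0.05 in limma, close to the share of 8048 of 27022 kept probe sets.

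Of 15 genes of cytokine receptors and signalling, 0 fell and 4 rose in limma, against 7.09% and 8.49% of all genes. An unadjusted p under 0.05 was found for 8, against 8048 of 27022 kept probe sets. Il7r, the interleukin 7 receptor chain, read 14.13, 13.08 and 12.43 with mD1R, against 11.64, 10.67 and 10.62 with PBS, a rise of 2.24 ± 0.45 (adjusted p = 0.0208). The feedback inhibitor genes Cish and Socs1 rose by 1.66 ± 0.24 and 1.61 ± 0.30, and the interleukin 12 receptor gene Il12rb1, chosen after its value was seen, by 1.01 ± 0.26. The interleukin 18 receptor genes Il18rap (-1.92 ± 0.55, adjusted p = 0.0565) and Il18r1 (-1.70 ± 0.52, adjusted p = 0.0692), also chosen after their values were seen, were lower on every mD1R array and did not pass. Of 16 other factors of natural killer and innate lymphoid cells, 2 fell and 3 rose, against 7.09% and 8.49% of all genes. Bach2, a repressor, read 7.11, 7.74 and 6.74 with mD1R, against 10.29, 9.04 and 9.05 with PBS, and fell by 2.26 ± 0.41, whereas Prdm1 rose by 1.94 ± 0.30 and Runx3 by 0.86 ± 0.19. Lef1 (-2.52 ± 0.59) fell and Rora (1.47 ± 0.35) rose, both chosen after their values were seen. Members of this list therefore moved in both directions, whereas the called Eomes probe set fell.

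Of 14 other T-box genes 3 were measured and 0 passed in limma, against 7.09% of all genes lower and 8.49% higher. An unadjusted p under 0.05 was found for 2, against 8048 of 27022 kept probe sets. Tbx19 and Mga differed by 1.0 ± 0.35 and 0.67 ± 0.28. Of 10 measured ligands of the receptors and partners of Ncam1, 1 fell and 0 rose, against 7.09% and 8.49% of all genes. An unadjusted p under 0.05 was found for 4. The 1 that fell was Gfra1 (-1.26 ± 0.33, adjusted p = 0.0445), a receptor subunit for glial cell line-derived neurotrophic factor, which also acts through Ncam1 protein. L1cam (-1.27 ± 0.36, adjusted p = 0.0575) and Fgfr1 (1.46 ± 0.42, adjusted p = 0.0568), both chosen after their values were seen, did not pass.

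**Figure D4:**
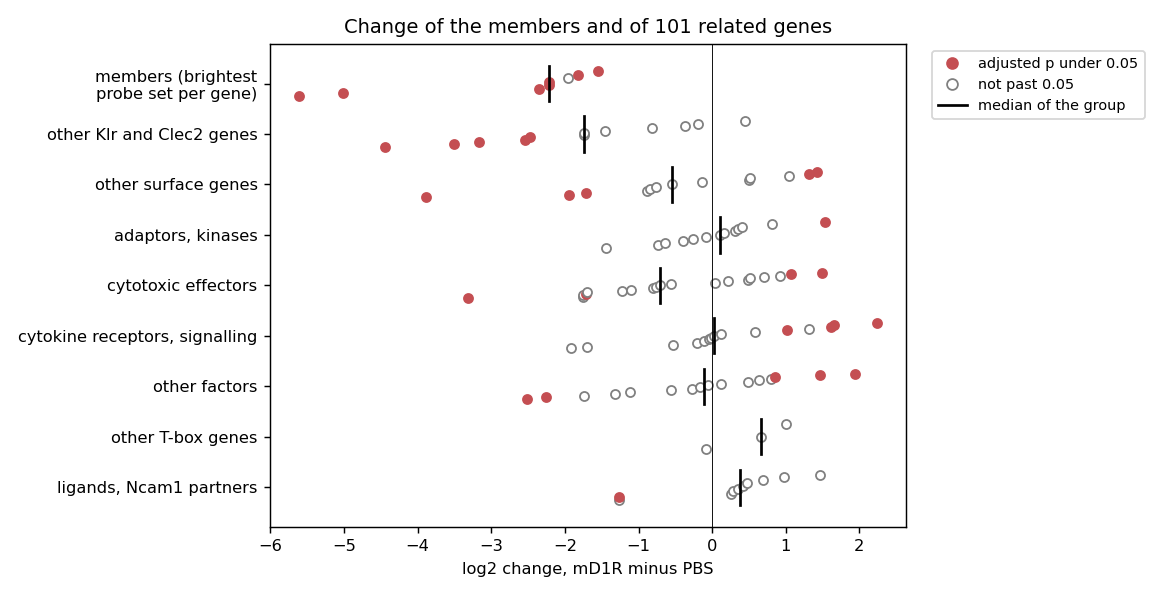
The log2 change (horizontal axis, mD1R minus PBS) of the brightest kept probe set of 8 member genes and of 101 related genes is plotted by list (rows), filled red where adjusted p was under 0.05, with a black line at each median. The members and the other genes of the receptor cluster lie furthest left, with list medians of -1.74 or lower, while the other lists have medians between -0.71 and 0.67. Only genes past the filter are drawn, and a gene can pass it through the arrays of 1 group alone.

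Markers of several other cell types also differed, and their part in these results was not tested. The counts below stand against 7.09% of all 12320 genes lower and 8.49% higher. An unadjusted p under 0.05 in limma was found for 8048 of 27022 kept probe sets. Of 6 measured T cell markers, 2 fell and 0 rose. The 2 were Cd3d (-3.73 ± 0.34) and Cd3g (-1.80 ± 0.34), chains of the T cell receptor complex. Of those that did not pass, Cd3e differed by -1.41 ± 0.59, Cd8a by -0.40 ± 0.53, Cd5 by -0.20 ± 0.38 and Cd28, higher on every mD1R array, by 1.07 ± 0.39. The summed linear signal of the 8 listed markers ranged from 703 to 1780 with mD1R and from 1170 to 1250 with PBS, so the groups overlapped. Of 4 measured B cell markers, 2 fell and 0 rose, with sums of 979 to 1990 with mD1R and 1810 to 3290 with PBS. Mast cell markers went the other way, with 4 of 6 rising and sums of 31200 to 49100 with mD1R and 4340 to 8200 with PBS. Macrophage markers rose in 4 of 4, with sums of 37900 to 75600 with mD1R and 19100 to 21300 with PBS. Of 5 measured neutrophil markers 0 passed in limma (3 at an unadjusted p under 0.05), although their median log2 change was -4.10. Their sums were 962, 16270 and 122700 in mD1R replicates 1, 2 and 3, against 116000 to 136000 with PBS, so that mD1R replicates 1 and 2 lay far below the PBS arrays and mD1R replicate 3 among them. Of innate lymphoid type 2 markers 0 of 2 passed (1 at an unadjusted p under 0.05), and of erythroid markers 0 of 2 (0 at an unadjusted p under 0.05), with overlapping sums of 152 to 349 and 368 to 537 with mD1R, and of 188 to 464 and 271 to 1100 with PBS. Of 2 measured endothelial markers, Pecam1 rose (1.41 ± 0.31), with sums of 967 to 1670 with mD1R and 553 to 631 with PBS. No marker was listed at 0 on any array. The 8 member genes summed to between 295 and 769 with mD1R and between 2780 and 4330 with PBS. This sum includes Ncam1, which is not a general marker of natural killer cells in mice, and none was made without it.

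The genes most like the members across the 6 arrays were found by correlation with the mean standardised profile of the 8 member genes, among 11690 named genes. They were Bub1b, a mitotic checkpoint kinase gene (Pearson r = 0.998), Ing3 (0.996), the neurturin receptor gene Gfra2 (0.995), the noncoding host gene Snhg5 (0.995) and Gimap4, a GTPase gene of lymphocytes (0.994). The 6 arrays share 2 groups, so any gene that separates them correlates strongly, and these values describe likeness only. Gimap4 read 6.70, 8.20 and 7.96 with mD1R, against 9.88, 9.58 and 9.60 with PBS, with mD1R replicate 1 lowest and PBS replicate 1 highest, as in most members. Between pairs of member genes the correlations across the 6 arrays ranged from 0.75 to 1.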

How the data were processed

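Per the labels, biotin-labelled RNA from 6 samples was hybridised to Affymetrix 3 prime arrays. The deposited values are log2 signals for 45101 probe sets, 64 of them controls, and the submitters' processing notes name MAS5 without a version. Each array's linear signals had a 2% trimmed mean of 500.0, and values under 1 were listed as 0. No detection calls were used here, and low signals may be background. Coordinates and promoter windows are RefSeq's (GRCm38.p6).

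The deposited log2 values were fitted in R 4.3.3 with limma 3.58.1 (lmFit and two-sided eBayes, with a variance trend) over 27022 probe sets with a mean at or above the 40th percentile. P-values were adjusted over all of them by the Benjamini-Hochberg method, at a threshold of 0.05. Changes and intervals of probe sets under the filter come from a fit without it. The number of arrays limits the precision (median standard error 0.31). The code was tested on simulated data. Arrays of a group differed with an SD of 0.504 to 0.960, so none was a duplicate. The members, lists and spike-in sets were chosen with earlier results of these data known. The rule for named genes took all members, up to 3 per list by smallest p among those that passed (otherwise 2), and the 5 most alike genes. Genes outside it are marked as chosen after their values were seen, except markers of the gate and of other cell types. Alternatives covered scaling, pseudocount, filter, variance model, array weights, blocks, threshold, shared probe sets and each array left out.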

Additional observations from a re-analysis of the deposited data

How the results depend on the processing

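All 12 kept member probe sets were lower with mD1R in every alternative that tested them. Their groups did not overlap. The sign was therefore fixed in advance with 1 array left out or another pseudocount, filter, threshold or variance model. The same 10 were called with arrays centred on their medians, quantile normalization, a pseudocount of 32, no filter, robust variance, array weights or the replicate number as a block, and when the shared Klrb1b and Klrb1c probe set, which the filter leaves out, was added to the members. With no variance trend 8 of the 10 were called, and 8 of them with the spike-in set as a block, plus 1 other. With the filter at the 60th percentile 3 were tested and all 3 were called, since fewer were tested. At adjusted p 0.01 the count was 0, and the smallest adjusted p was 0.0162. All 12 had an unadjusted p under 0.05 in limma, against 8048 of 27022 kept probe sets. Leaving out 1 array gave 0 to 10 member calls, 0 to 40 calls among related genes (25 with all arrays) and 0 to 5554 among all probe sets (3413 with all arrays). The count over all probe sets was 2213 with no variance trend, 6508 with array weights and 108 at adjusted p 0.01. Among related genes it was 44 with array weights and 3 at adjusted p 0.01. The causes of the changes with variance model and weights were not tested. A pseudocount of 32 brought the members' median log2 change to -1.59 (-2.31 without it). Deviations from the group means correlated at 0.31, 0.03 and 0.13 between arrays of the same replicate number 1, 2 and 3, and mD1R replicate 2 correlated best with PBS replicate 3 (0.09), so the numbers were not taken as pairs. With the replicate block 4619 probe sets, 10 member probe sets and 35 related genes were called. Low signals limit the members under the filter, whose changes carry standard errors between 0.75 and 0.91.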
